A study of Homo sapiens with 8 samples.

Results

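The 9 genes described here encode the enzymes that finish fibrillar collagen outside the cell. They are the 5 lysyl oxidases (LOX, LOXL1, LOXL2, LOXL3 and LOXL4), the procollagen C-proteinase BMP1 with its enhancer PCOLCE, and the procollagen N-proteinases ADAMTS2 and ADAMTS14. They were taken by gene symbol, and all 9 were found among the 16796 genes of the count files. Expression was measured by RNA sequencing of polyadenylated RNA in LX-2 cells, a human line of hepatic stellate cells used as a model of liver myofibroblasts. The cells, a single line kept in medium with 5% serum, received for 24 h either DMSO as vehicle (control) or OSMI-1 at 50 µM, an inhibitor of O-GlcNAc transferase (OGTi). Each group had 4 libraries from independent experiments, and libraries of the same replicate number were analysed as pairs.

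Fibrillar collagen is secreted as procollagen with a propeptide at each end, and these propeptides are cut by proteinases. BMP1 removes the C-propeptide, PCOLCE binds that propeptide and speeds its removal, and ADAMTS2 and ADAMTS14 remove the N-propeptide. Lysyl oxidases are copper enzymes that convert lysine and hydroxylysine in collagen and elastin into aldehydes, which then form the covalent cross-links of the matrix. BMP1 also cuts the LOX precursor, so that the cleavage and cross-linking steps are linked. In the injured liver, cross-linking by these enzymes makes the scar stiffer and harder to degrade.

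Libraries held 24166756 to 28201215 counts. The genes PTPRC, APOA1, PECAM1 and KRT19, which mark blood cells, hepatocytes, endothelium and bile duct cells, stayed at or below 11.5 normalized counts (counts divided by the library's size factor) in every library. Of 10 stellate and myofibroblast markers, 7 averaged 10 normalized counts or more, while DES, GFAP and LRAT, which mark stellate cells, were at or below 5.75 in every library. Of the 7, some were lower in OGTi libraries with no overlap. These were ACTA2 (254 to 920 in control, 121 to 234 in OGTi), PDGFRB (1957 to 2564, 1099 to 1311), RELN (219 to 486, 57.7 to 106) and SPARC (22032 to 24019, 13875 to 16989). TIMP1 was higher with no overlap (11446 to 13604, 14174 to 25186), and VIM and PDGFRA overlapped between groups. The 3 immune markers used here summed to 2477 to 4080 in control and 5605 to 9390 in OGTi libraries, nearly all of it CD68, a lysosomal protein. The 3 endothelial markers summed to 47.7 to 91.1 and 17.0 to 33.8, the 3 cholangiocyte markers, mostly SOX9, to 681 to 1151 and 955 to 1273, and the 2 hepatocyte markers to at most 74.0 in either group. Their part in the differences given below was not tested. OGA, the enzyme that removes O-GlcNAc, fell to 28.7% of control (DESeq2 q of 1.69e-92), and OGT mRNA fell to 73.3% (DESeq2 q of 1.48e-06), where q is the Benjamini-Hochberg adjusted p.

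Most of the collagen-finishing genes were expressed at a lower level in OGTi cells. Of the 9 genes, 7 were called lower (DESeq2 q of 0.05 or lower), namely LOX, LOXL1, LOXL2, LOXL4, BMP1, PCOLCE and ADAMTS2, and 0 were called higher. LOXL3 and ADAMTS14 were not called. Of all 14028 genes with an adjusted p, 46.6% were called, 24.0% lower and 22.7% higher, so that a call was common in these cells. The median log2 fold change was -0.50 over the 9 genes, 0.00 over all genes with an adjusted p and -0.52 over the 3360 genes called lower. Among the called genes, 6 were lower in each of the 4 pairs, and PCOLCE was lower in 3 of them. For 5 of the 9 genes every OGTi library lay below every control library, a pattern found for 20.2% of all genes with an adjusted p. RNA was taken from whole cultures, so that fewer expressing cells and less RNA per cell cannot be told apart.

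**Figure D1:**
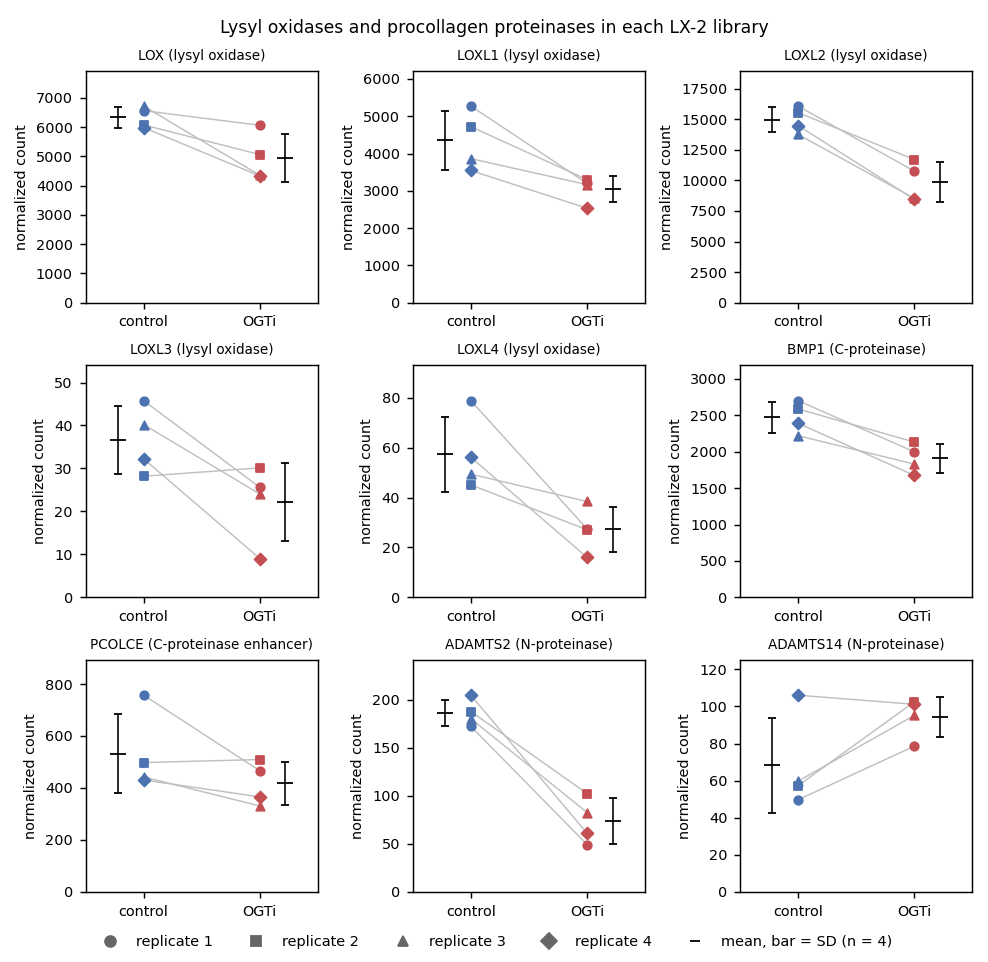
Normalized count (vertical axis, from 0) of each of the 9 genes in the 4 control and 4 OGTi libraries. Grey lines join libraries of the same replicate number and black marks show mean and SD (n = 4). LOXL1, LOXL2, LOXL4, BMP1 and ADAMTS2 have no overlap between groups, and ADAMTS14 alone has a higher mean in OGTi cells.

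LOX, LOXL1 and LOXL2 all fell, and OGTi cells kept 65.4% to 77.5% of the control level. LOXL2 acts on the basement membrane collagen IV as well as on fibrillar collagen. LOXL2 had 16072, 15534, 13750 and 14482 normalized counts in control replicates 1 to 4, and 10752, 11704, 8529 and 8453 in OGTi replicates 1 to 4. Its groups did not overlap, and replicates 3 and 4 were the lowest of the OGTi libraries (log2 fold change -0.61 ± 0.07 SE, DESeq2 q of 2.90e-15). LOXL1, which is required for elastic fibre upkeep, had 5273, 4721, 3862 and 3546 in control and 3201, 3301, 3166 and 2532 in OGTi libraries. Control replicates 1 and 2 were the highest, the OGTi libraries all lay below the lowest control, and the log2 fold change was -0.50 ± 0.08 (DESeq2 q of 9.54e-09). LOX, the founding enzyme of the family, had 6559, 6072, 6717 and 5982 in control and 6060, 5058, 4353 and 4329 in OGTi libraries. OGTi replicate 1 lay within the control range and the other OGTi libraries lay below it. LOX was lower in all 4 pairs (log2 fold change -0.37 ± 0.09, DESeq2 q of 9.71e-05), and the pair ratios ran from -0.63 to -0.11 on the log2 scale.

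LOXL3 and LOXL4, which together with LOXL2 carry scavenger receptor domains, had few counts. LOXL4 had 78.9, 45.1, 49.4 and 56.2 normalized counts in control and 27.4, 27.1, 38.5 and 16.0 in OGTi libraries. The groups did not overlap and the log2 fold change was -1.09 ± 0.38 (DESeq2 q of 0.0108), but the call was lost when replicate 1 (-0.94, DESeq2 q of 0.114) or replicate 4 (-0.88, DESeq2 q of 0.128) was left out. LOXL3 had 45.8, 28.2, 40.2 and 32.2 in control and 25.6, 30.1, 24.0 and 9.02 in OGTi libraries. Replicate 2 showed no decrease, and OGTi replicate 4 was the lowest library. The log2 fold change of LOXL3 was -0.79 ± 0.45 (95% interval -1.67 to 0.09, DESeq2 q of 0.140). A decrease as large as that of LOXL4 lies inside this interval.

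To compare levels between genes, normalized counts were divided by the length of the canonical transcript in kilobases. On this scale the control levels were 4020 ± 280 for LOXL2, 1855 ± 337 for LOXL1, 1248 ± 71 for LOX, 689 ± 59 for BMP1 and 351 ± 101 for PCOLCE (SD, n = 4 each). The remaining genes were far lower, at 27.5 ± 2.0 for ADAMTS2, 16.0 ± 4.2 for LOXL4, 12.3 ± 4.6 for ADAMTS14 and 9.92 ± 2.14 for LOXL3. In control cells, neighbours in this order from LOXL2 down to LOXL4 had ranges that did not touch, while ADAMTS14 overlapped with both LOXL4 and LOXL3, which did not overlap with each other. This depended on the length used. With merged exon lengths the control ranges of LOXL1 (mean 1196) and LOX (mean 1132) overlapped, as did those of ADAMTS2 (mean 20.8) and LOXL4 (mean 16.0). In OGTi cells LOXL1 (1300.1 ± 149) and LOX (975 ± 160) overlapped, and with the length of all merged exons in place of the canonical transcript their order turned, to 839 for LOXL1 and 885 for LOX. ADAMTS14 (17.0 ± 2.0) stood above ADAMTS2 (10.9 ± 3.5) in OGTi cells, but their ranges overlapped.

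**Figure D2:**
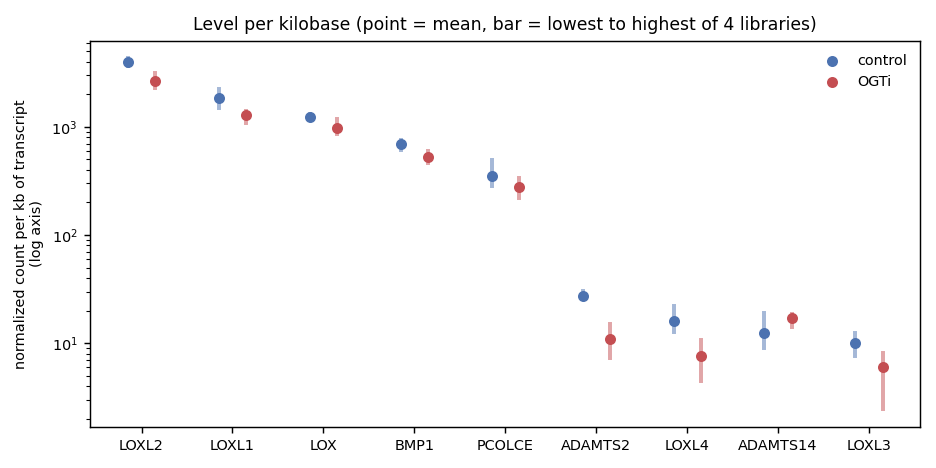
Normalized count per kilobase of canonical transcript (log axis) for each gene, with the mean as a point and the lowest to highest of 4 libraries as a bar, in control and OGTi cells. LOXL2, LOXL1, LOX, BMP1 and PCOLCE form the abundant set and the 4 other genes lie more than 10 times lower.

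The share that each oxidase held of the family overlapped between groups. LOXL2 made up 54.7%, 56.4%, 55.2% and 58.9% of the summed lysyl oxidase level per kilobase in control libraries and 52.9%, 56.5%, 50.8% and 53.9% in OGTi libraries. The share of LOXL1 was 25.8% ± 2.5 (control) and 26.4% ± 2.3 (OGTi), and that of LOX was 17.5% ± 1.7 (control) and 19.8% ± 1.7 (OGTi, SD, n = 4). The log2 ratio of LOXL2 to LOX within a library was 1.24 ± 0.14 in control and 0.99 ± 0.16 in OGTi cells, a difference of -0.25 that did not pass a two-sided exact permutation test (p of 0.0571, q of 0.0571 over the 5 ratios tested). These 5 ratios were chosen after the values were seen, and 4 against 4 libraries allow no p below 0.0286. The ratio of LOXL2 to LOX was lower under OGTi in 4 of 4 pairs, but the test does not use the pairing, and an exact test over 4 pairs could not go below 0.125.

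BMP1 and PCOLCE, which act at the C-propeptide, were both called lower. BMP1, which encodes the main procollagen C-proteinase and its longer splice form mammalian tolloid, had 2702, 2588, 2220 and 2392 normalized counts in control and 1999, 2133, 1830 and 1675 in OGTi libraries. All OGTi libraries lay below all controls (log2 fold change -0.38 ± 0.08, DESeq2 q of 1.60e-05). Gene counts do not separate the BMP1 splice forms. PCOLCE had 757, 498, 442 and 431 in control and 466, 509, 331 and 366 in OGTi libraries. Control replicate 1 was well above the others, replicate 2 showed no decrease and the groups overlapped. The log2 fold change of PCOLCE was -0.33 ± 0.14 (DESeq2 q of 0.0382), and the call was the least stable of the 7. It was lost when the replicate block was dropped (DESeq2 q of 0.131, edgeR q of 0.144), when library totals served as size factors (DESeq2 q of 0.150), and when replicate 1 (-0.20, DESeq2 q of 0.329), replicate 3 (-0.31, DESeq2 q of 0.142) or replicate 4 (-0.36, DESeq2 q of 0.0900) was left out.

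The N-proteinases did not move together. ADAMTS2, whose loss causes the dermatosparactic form of Ehlers-Danlos syndrome, showed the largest called change of the 9 genes. ADAMTS2 had 172, 188, 180 and 205 normalized counts in control and 49.3, 102, 82.7 and 61.1 in OGTi libraries. Control libraries were tightly grouped, all OGTi libraries lay far below them, and 38.5% of the control level was kept (log2 fold change -1.38 ± 0.23, DESeq2 q of 2.45e-08). ADAMTS14, a close relative with the same N-proteinase activity, had 49.7, 57.3, 59.8 and 106 in control and 78.6, 102, 95.2 and 101 in OGTi libraries. Control replicate 4 lay above every OGTi library, and in the other pairs the OGTi library was the higher one. ADAMTS14 was not called (log2 fold change 0.52 ± 0.27, 95% interval -0.01 to 1.05, DESeq2 q of 0.107), nor was it without replicate 4 (0.72, q of 0.0885).

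Measured as a ratio within each library, the balance of the pair shifted. The log2 ratio of ADAMTS14 to ADAMTS2 counts was -1.80, -1.71, -1.59 and -0.95 in control and 0.67, 0.00, 0.20 and 0.73 in OGTi libraries. The groups did not overlap, and the difference was 1.91 (exact permutation test, two-sided, p of 0.0286, q of 0.0357 over the 5 ratios). That p is the smallest that 4 against 4 libraries allow. The test ignored the pairing, and an exact test over 4 pairs could not go below 0.125. This ratio was also chosen after the values were seen. Per kilobase, ADAMTS2 made up 69.8% ± 5.8 of the pair in control cells but 38.4% ± 5.8 under OGTi (SD, n = 4). ADAMTS3, the other procollagen N-proteinase, had at most 1.95 normalized counts in any library and was not tested.

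For these N-proteinases, the 250 bases upstream of the RefSeq start site are shown because the ratio of the pair shifted, with each SMAD element (CAGAC on either strand) in capitals. The windows are chr5:179345462-179345711 on the minus strand for ADAMTS2 and chr10:70672256-70672505 on the plus strand for ADAMTS14 (GRCh38.p14), each read 5′ to 3′ toward the gene.
ADAMTS2: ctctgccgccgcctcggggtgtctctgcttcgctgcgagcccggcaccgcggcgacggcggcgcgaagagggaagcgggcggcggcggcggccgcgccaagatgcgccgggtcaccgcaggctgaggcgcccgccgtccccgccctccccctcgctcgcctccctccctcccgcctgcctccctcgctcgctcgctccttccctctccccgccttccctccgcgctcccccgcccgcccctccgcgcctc
ADAMTS14: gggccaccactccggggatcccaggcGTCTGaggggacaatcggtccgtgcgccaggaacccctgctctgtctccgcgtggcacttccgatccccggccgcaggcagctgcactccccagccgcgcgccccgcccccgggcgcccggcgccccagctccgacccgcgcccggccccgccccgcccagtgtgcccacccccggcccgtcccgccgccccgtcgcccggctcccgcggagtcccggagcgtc
Both windows were rich in GC, at 80.0% for ADAMTS2 and 80.4% for ADAMTS14. ADAMTS2 held no match to any of the motifs searched, and ADAMTS14 held a single SMAD element, which is found in 44.95% of all promoters. A link between these sequences and the level of either gene was not tested.

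The motifs were searched on both strands from 250 bases before to 50 bases after the start site, in the 7 of the 9 genes matched in the RefSeq promoter table. LOXL2 and BMP1 had no match there and were not searched. RefSeq lists 3 starts for LOX and 2 for LOXL3, and the first listed of each gene was used for all promoters. Those of LOX, LOXL1 and LOXL3 lie 154, 473 and 1748 bases inside the GENCODE gene. The searched letters were the TEAD motif GGAATG, the AP-1 motif TGANTCA, the hypoxia element ACGTG and the SMAD element CAGAC. LOXL3 held 2 TEAD motifs at this start and was the only one of the 7 with a match, against 14.05% of all 27305 promoters, while the window of its other start held 0 TEAD motifs and 1 SMAD element. The AP-1 motif was found in 0 of the 7 and in 7.764% of all promoters, and the SMAD element in 3 of the 7 (LOX, LOXL1 and ADAMTS14) and 44.95% of all. Of the 7, LOX alone held the hypoxia element, found in 21.61% of all promoters, and held it 4 times at the first listed start and once at each of its other starts. The 30 bases of LOX from 120 to 91 bases before its first listed RefSeq start (chr5:122078350-122078379, minus strand, GRCh38.p14) are shown because they carry 2 of these elements, in capitals. These bases lie inside the GENCODE gene, not upstream of it.
LOX: cttgCACGTttccaatcgcattACGTGaac
A match to these letters is a description of the window and not evidence of binding.

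The partner genes listed for these enzymes covered other proteinases and enhancers, scaffold proteins, copper transport, lysyl hydroxylases, cross-linked substrates and further BMP1 substrates. Of 34 genes, 22 had an adjusted p, and of these 14 were called lower and 5 higher, with a median log2 fold change of -0.43. Over all 14028 genes with an adjusted p, 24.0% were called lower and 22.7% higher. The partners' share called higher was near that of all genes, and the list was chosen with earlier results of these data known. The other 12 of the 34 partner genes were at or below 10.1 normalized counts in every library or not used here. Elastin (ELN), the second substrate of the family, was among those with low counts, at 6.40 normalized counts or less.

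TLL1, which encodes tolloid-like 1, a C-proteinase related to BMP1, changed far more than BMP1. TLL1 had 1720, 2218, 2690 and 2084 normalized counts in control and 378, 728, 693 and 557 in OGTi libraries. The groups lay far apart, and OGTi replicate 1 was the lowest library. The log2 fold change of TLL1 was -1.91 ± 0.10 (DESeq2 q of 4.80e-74). The log2 ratio of TLL1 to BMP1 went from -0.20 ± 0.38 to -1.74 ± 0.45, a difference of -1.54 (exact permutation test, two-sided, p of 0.0286, q of 0.0357 over 5 ratios). This test also ignored the pairing, on a ratio chosen after the values were seen. Per kilobase, TLL1 supplied 30.3% ± 5.5 of the sum of both genes in control cells but 13.2% ± 3.2 under OGTi (SD, n = 4). The related TLL2 was barely expressed in control (0 to 4.70 normalized counts) and reached 6.40 to 47.2 in OGTi libraries, with replicate 2 far above the others. TLL2 was called higher (log2 fold change 3.29 ± 0.92, DESeq2 q of 0.00116) but lost its call when replicate 2 was left out, with a fold change of like size (3.38, DESeq2 q of 0.0565).

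Among the partner genes listed as scaffolds of LOX and BMP1, 5 of 5 with an adjusted p were called lower, against 24.0% of all genes. EFEMP2 (fibulin-4), which is needed for LOX to act on elastin and collagen, had 2999, 2648, 2713 and 2964 normalized counts in control and 1660, 1926, 1897 and 1776 in OGTi libraries. Its groups were well apart (log2 fold change -0.64 ± 0.09, DESeq2 q of 3.50e-12). POSTN (periostin), which helps BMP1 act on the LOX precursor, had 100, 152, 382 and 165 in control and 26.5, 93.4, 116 and 89.2 in OGTi libraries, with control replicate 3 high and a slight overlap of the groups. It was lower in all 4 pairs (-1.28 ± 0.24, DESeq2 q of 6.86e-07), and with the block dropped it was not called by DESeq2 (-1.30, q of 0.0568) but was called by edgeR (-1.29, q of 0.0224). FBLN5, an elastic fibre protein that binds LOXL1, changed by -0.86 ± 0.27 (DESeq2 q of 0.00402), a call lost with replicate 4 left out (-0.75, DESeq2 q of 0.0624). THBS1, a matricellular protein, changed by -0.48 ± 0.09 (DESeq2 q of 1.89e-06). Fibronectin (FN1), which binds both LOX and BMP1, changed by -0.30 ± 0.08 (DESeq2 q of 0.000448), and this call needed the block (DESeq2 q of 0.106 and edgeR q of 0.143 with the block dropped). FBLN5, THBS1 and FN1 overlapped between groups and were lower in all 4 pairs.

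Of the genes that supply copper, 3 of 3 were called higher, against 22.7% of all genes with an adjusted p. SLC31A1, the copper importer of the plasma membrane, had 1252, 1293, 1439 and 1359 normalized counts in control and 1845, 1946, 2007 and 2054 in OGTi libraries. ATP7A, the pump that loads copper onto lysyl oxidases in the secretory pathway, had 283, 327, 340 and 315 in control and 554, 531, 631 and 596 in OGTi libraries. In both genes every OGTi library lay above every control, with log2 fold changes of 0.56 ± 0.08 (DESeq2 q of 5.82e-11) and 0.87 ± 0.12 (DESeq2 q of 2.53e-11). Such an upward separation was found for 19.8% of all genes with an adjusted p. ATOX1, the chaperone that hands copper to ATP7A, differed by 0.31 ± 0.13 on the log2 scale (DESeq2 q of 0.0419). The ATOX1 call was lost when the block was dropped (DESeq2 q of 0.0700, edgeR q of 0.0770) and when replicate 2 (DESeq2 q of 0.261) or replicate 3 (DESeq2 q of 0.287) was left out.

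The lysyl hydroxylases, which make the hydroxylysine that oxidases act on, did not share a direction. PLOD1 rose (0.45 ± 0.07, DESeq2 q of 1.76e-09) and PLOD3 fell (-0.39 ± 0.08, DESeq2 q of 2.14e-06), both with no overlap between groups. PLOD2, the telopeptide lysyl hydroxylase linked to fibrotic cross-links, was not called (0.08 ± 0.08, 95% interval -0.08 to 0.25, DESeq2 q of 0.445).

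**Figure D3:**
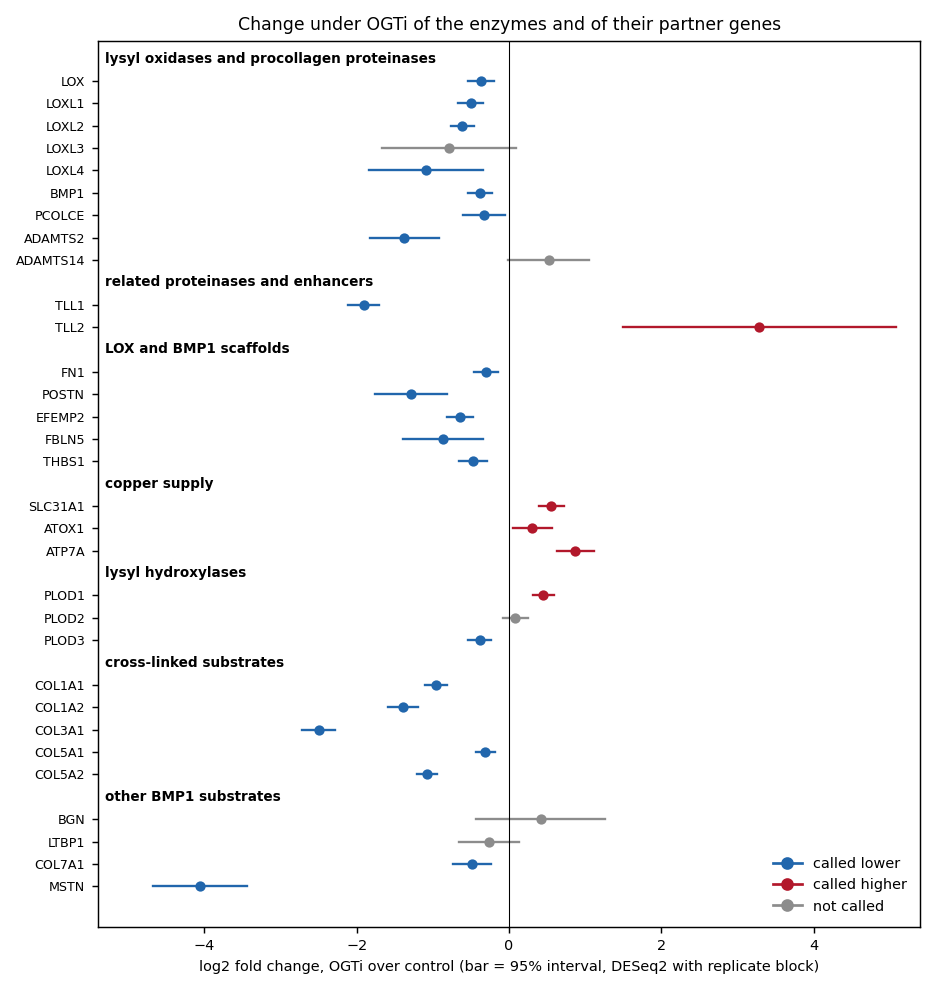
Difference between OGTi and control cells on the log2 scale with its 95% interval (DESeq2, replicate block) for the 9 genes and the 22 partner genes with an adjusted p. Blue marks genes called lower, red those called higher and grey those not called. Scaffold and cross-linked substrate genes lie left of 0 with most of the enzymes, and the 3 copper genes lie to the right.

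All 5 collagen substrates with an adjusted p were called lower, against 24.0% of all genes with an adjusted p. The log2 fold changes were -0.95 ± 0.07 for COL1A1, -1.39 ± 0.10 for COL1A2, -2.50 ± 0.11 for COL3A1, -1.08 ± 0.07 for COL5A2 and -0.31 ± 0.06 for COL5A1, the last of the size seen for LOX and BMP1. The log2 ratio of COL1A1 to LOX was 3.64, 3.73, 3.78 and 3.83 in control and 2.66, 3.26, 3.48 and 3.23 in OGTi libraries. The ratio of COL1A1 to BMP1 was 4.91, 4.96, 5.38 and 5.15 in control and 4.26, 4.51, 4.73 and 4.60 in OGTi libraries. Neither ratio overlapped between groups, so COL1A1 fell more than LOX and BMP1 did. The ratio fell by 0.59 for LOX and by 0.58 for BMP1 (exact permutation tests, two-sided, each with p of 0.0286 and q of 0.0357 over the 5 ratios). These tests also ignored the pairing, on ratios chosen after the values were seen.

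On the scale per kilobase, the summed level of the 5 lysyl oxidases was 7894, 7404, 6690 and 6606 in control and 5462, 5565, 4516 and 4211 in OGTi libraries. The summed level of COL1A1, COL1A2, COL3A1, COL5A1 and COL5A2 was 19962 ± 998 in control and 10157 ± 1156 in OGTi cells. COL1A1 was most of this sum, at 14335 ± 908 in control and 7428 ± 902 in OGTi cells. COL5A1 had a smaller log2 fold change (-0.31) than LOXL1 (-0.50) and LOXL2 (-0.61), so ratios to the sum do not describe each collagen. The oxidases thus stood at 39.6, 38.2, 31.3 and 34.5 per 100 of collagen in control and at 60.5, 48.9, 41.5 and 45.2 in OGTi libraries, highest in OGTi replicate 1. BMP1 stood at 3.46 ± 0.40 per 100 of collagen in control cells against 5.26 ± 0.64 under OGTi (SD, n = 4). No test was run on the summed levels.

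**Figure D4:**
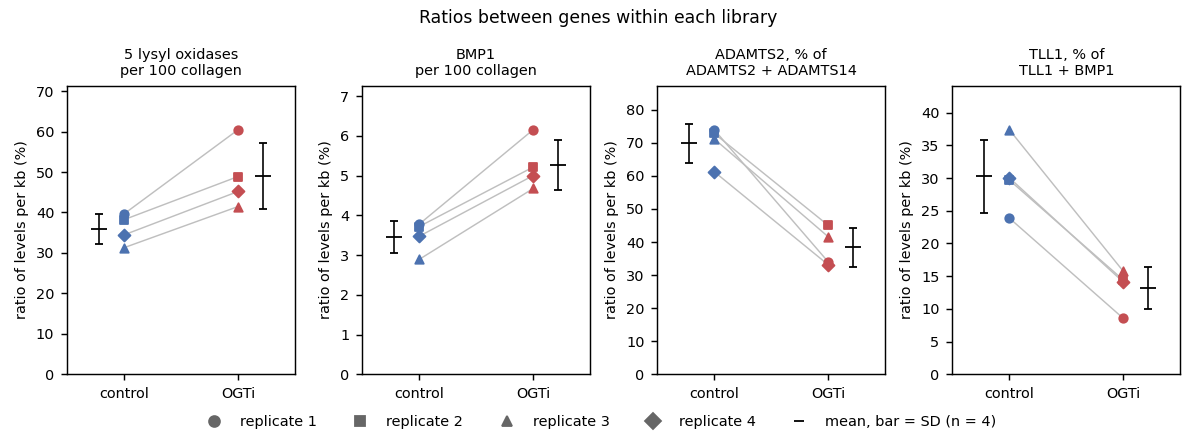
Ratios of levels per kilobase within each library (vertical axes in %, from 0). The 4 panels show the summed lysyl oxidases and BMP1 per 100 of collagen, ADAMTS2 as a share of the N-proteinase pair and TLL1 as a share of TLL1 plus BMP1. Grey lines join replicates and black marks show mean and SD (n = 4). Both collagen ratios are higher and both shares lower in every OGTi library than in any control library.

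Of the further BMP1 substrates with an adjusted p, 2 of 4 were called lower, against 24.0% of all genes. COL7A1, the anchoring fibril collagen, changed by -0.49 ± 0.13 (DESeq2 q of 0.000383). MSTN (myostatin), whose latent complex is opened by BMP1-like proteinases, changed by -4.06 ± 0.31 (DESeq2 q of 1.37e-36). BGN (0.41 ± 0.43, q of 0.459) and LTBP1 (-0.26 ± 0.20, q of 0.297) were not called by DESeq2.

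The 9 genes lie on 6 chromosomes (GENCODE 44, GRCh38). LOXL2 (chromosome 8, 23296897 to 23425328) shares 120 exonic bases on its own strand with ENTPD4, which had a mean of 1778 normalized counts in control and 1793 in OGTi libraries. LOXL3 (chromosome 2, 74532258 to 74555690) shares 936 exonic bases with HTRA2 on the opposite strand, and HTRA2 had a mean of 536 in control and 833 in OGTi libraries. BMP1 (chromosome 8, 22165140 to 22212326) shares 461 exonic bases on its own strand with a long non-coding RNA gene not used here, so reads there are uncertain. LOX (chromosome 5, 122063195 to 122078413) and PCOLCE (chromosome 7, 100602363 to 100608175) overlap genes on the opposite strand, by 138 exonic bases of SRFBP1 and 562 of PCOLCE-AS1. LOXL1 lies at 73925989 to 73952137 on chromosome 15, LOXL4 at 98247690 to 98268194 and ADAMTS14 at 70672506 to 70762441 on chromosome 10, and ADAMTS2 at 179110853 to 179345461 on chromosome 5. The libraries were stranded and the counting used strand. All 72 values of the 9 genes were whole numbers as deposited (no fractional part, with no tolerance), and 12.9% to 16.3% of genes per library had fractional counts from reads shared between genes.

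The gene with the pattern most like that of LOXL2, the called gene with the most negative Wald statistic, was sought among 10988 other genes averaging 100 normalized counts or more. Over the 8 libraries, the Pearson correlation of log2(normalized count + 1) was 0.994 for CWC25, 0.991 for PSRC1 and 0.991 for CDC20. These libraries belong to both treatment groups, and any gene with a like difference between them shares it with LOXL2 in this measure. CDC20 and PSRC1, which act in mitosis, had log2 fold changes of -0.64 and -0.68, close to that of LOXL2, and CWC25, a splicing factor, had -0.30.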

How the data were processed

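RNA sequencing libraries of polyadenylated RNA from 8 LX-2 cultures, 4 control and 4 OGTi, were read from both ends. The authors aligned reads to hg38 with Bowtie2 2.3.5.1 and deposited expected counts per gene from RSEM 1.3.1, without scaling (versions from the submitters' processing notes). The authors' deposited comparison table (log2 fold changes and p-values) was not used. Expected counts were rounded, genes with under 10 counts in total were dropped, and all remaining genes were fitted with DESeq2 1.42.0 in R 4.3.3 (Wald test, replicate as a block after the study's methods, unshrunken fold changes, q of 0.05). All 9 genes passed the filter. Across 11005 genes, deviations of same-numbered libraries correlated at 0.386, 0.413, 0.186 and 0.344 for replicates 1 to 4, and control replicate 3 was closest to OGTi replicate 4. Alternatives used edgeR 4.0.16, limma 3.58.1, library totals, other filters and each replicate left out. Lengths and positions came from GENCODE 44, promoters from RefSeq. Ratios were tested with exact permutation tests (SciPy 1.17.1). The fit was tested on simulated data with few changed genes and no replicate effect, so that test does not bear on calls that need the block. Ratios and level shares were chosen after values were seen. All genes named were the 9 enzymes, a list of 34 partner genes from general knowledge (a further listed gene is not reported here), OGT and OGA, cell type markers and the 3 genes most correlated with LOXL2; overlapping genes were added later. The enzymes and lists were chosen with earlier results of these data known.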

Additional observations from a re-analysis of the deposited data

Results flagged for a closer look

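In each group of 4 libraries the gap between the highest or lowest value and its nearest neighbour was compared with the range of the group by the Dixon test at 95%. Of 66 groups tested, 2 passed, and chance gives about 1 in 20. For COL5A1, control replicate 1 was low at 10540 normalized counts, with the remaining controls between 12760 and 13063. For MSTN, control replicate 3 was high at 1872, with the remaining controls between 1115 and 1158. None of the 18 groups of the lysyl oxidase and proteinase genes passed.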

How the results depend on the processing

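Under the 11 alternatives, 91 of 99 fold changes of the 9 genes kept both direction and side of the threshold, 8 lost their call and 0 changed sign. LOX, LOXL1, LOXL2, BMP1 and ADAMTS2 were called lower under each of them, and LOXL3 and ADAMTS14 under none. PCOLCE was not called with library totals as size factors (-0.24), without the replicate block in DESeq2 (-0.35, q of 0.131) or in edgeR (-0.35, q of 0.144), nor without replicates 1, 3 or 4. Leaving out replicates gave -0.46 to -0.20 for PCOLCE and -1.35 to -0.88 for LOXL4, which was not called without replicates 1 or 4. The block changed no other call among the 9 genes. Of the partner genes, 3 to 5 were called higher with replicates left out, the lowest without replicate 2. Library totals shifted the median log2 fold change of all genes by 0.09. Calls over all genes ranged from 5127 to 7119. With merged exon lengths the LOXL2 share of the family was 51.6% in control and 48.6% in OGTi cells, and the TLL1 share 43.3% and 21.1%. On the same lengths the ADAMTS2 share of the N-proteinase pair was 63.8% in control and 32.2% in OGTi cells. BMP1 per 100 of collagen was then 2.59 in control and 3.93 in OGTi cells. LOXL3, LOXL4 and ADAMTS14 had at most 106 normalized counts in any library and standard errors of 0.27 to 0.45, against 0.07 to 0.23 for the others; a part of depth in this was not tested. The causes of lost calls were not tested.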
